A study of Mus musculus with 4 samples.

Results

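The genes described here run the methionine cycle and the folate cycle of the liver. They are 9 members, namely Mtr, Mtrr, Mat1a, Gnmt, Ahcy, Bhmt, Cbs, Aldh1l1 and Shmt1, and the data are the accessible-chromatin peaks that lie inside each gene or within 50 kb of either of its ends. Of 38853 regions in the series, 54 met this rule, and 9 of them lay at the start of a member, 4 elsewhere inside a member and 41 outside. The 4 libraries were made by ATAC-seq (Tn5 transposase tags open DNA) from 20 mg of frozen liver of FVB-background females 11 weeks old, which ate standard chow freely. WT 1 and WT 2 are wild type. PA 1 and PA 2 carry the genotype labelled PA, described as hypomorphic Pcca-/- (A138T). Pcca is the alpha subunit of propionyl-CoA carboxylase, and the labels do not say how the A138T form is expressed. Each peak list gives positions without a height, so a gene's level of opening was not measured, only whether a peak was listed. Liver tissue holds several cell types, and a listing lost because fewer cells of a type are present cannot be told apart from one lost because each cell is less open.

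In the methionine cycle, Mat1a makes S-adenosylmethionine, Gnmt spends it by methylating glycine, and Ahcy cleaves the S-adenosylhomocysteine that methylation leaves. The homocysteine so formed is methylated back to methionine by Mtr, with a folate methyl group and a cobalamin cofactor that Mtrr keeps active, or by Bhmt with betaine, or it leaves the cycle through Cbs towards cysteine. Shmt1 loads one-carbon units from serine onto folate in the cytosol, and Aldh1l1 removes them as carbon dioxide. Methionine is one of the amino acids whose carbon skeleton becomes propionyl-CoA, and methylmalonyl-CoA mutase, further along that route, needs cobalamin as Mtr does.

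The bases just before 4 member starts are shown because each member start carried a peak in every library, and those of 2 neighbours because a peak listed in a single genotype covered their start. Sequences are RefSeq's, for the C57BL/6J reference (GRCm38.p6), read 5′ to 3′ towards the gene. Capitals mark matches to the motifs described next. The Bhmt stretch is chr13:93637759-93638008, minus strand, and that of Shmt1 is chr11:60811266-60811515, minus strand. Those of Gnmt (chr17:46729212-46729415, minus strand) and Aldh1l1 (chr6:90550543-90550767, plus strand) stop where the annotated gene begins. Pex6 is at chr17:46711226-46711475, plus strand, and 2310039H08Rik at chr17:46772385-46772634, plus strand.
Bhmt: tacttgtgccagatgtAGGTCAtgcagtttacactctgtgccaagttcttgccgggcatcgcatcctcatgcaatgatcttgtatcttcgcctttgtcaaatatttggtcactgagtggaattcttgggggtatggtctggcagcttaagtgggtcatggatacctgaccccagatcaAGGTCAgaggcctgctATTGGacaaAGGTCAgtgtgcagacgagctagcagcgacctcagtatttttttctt
Shmt1: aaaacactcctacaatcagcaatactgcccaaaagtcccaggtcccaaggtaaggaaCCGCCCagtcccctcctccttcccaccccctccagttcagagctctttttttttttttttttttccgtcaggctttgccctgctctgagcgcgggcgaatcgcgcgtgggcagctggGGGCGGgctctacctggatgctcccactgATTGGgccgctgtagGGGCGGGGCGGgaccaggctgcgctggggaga
Gnmt: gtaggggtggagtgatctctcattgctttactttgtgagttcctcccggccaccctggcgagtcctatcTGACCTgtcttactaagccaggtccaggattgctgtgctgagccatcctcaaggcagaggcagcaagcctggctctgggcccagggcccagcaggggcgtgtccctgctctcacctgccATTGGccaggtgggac
Aldh1l1: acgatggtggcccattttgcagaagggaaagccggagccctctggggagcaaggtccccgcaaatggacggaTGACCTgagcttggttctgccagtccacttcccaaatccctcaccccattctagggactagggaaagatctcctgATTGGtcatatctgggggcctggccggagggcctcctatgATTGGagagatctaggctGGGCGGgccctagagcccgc
Pex6: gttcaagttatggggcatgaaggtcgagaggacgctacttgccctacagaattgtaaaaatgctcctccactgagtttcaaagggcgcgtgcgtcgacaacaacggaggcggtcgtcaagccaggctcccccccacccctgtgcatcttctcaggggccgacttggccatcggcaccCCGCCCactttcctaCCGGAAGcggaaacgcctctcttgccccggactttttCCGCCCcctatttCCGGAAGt
2310039H08Rik: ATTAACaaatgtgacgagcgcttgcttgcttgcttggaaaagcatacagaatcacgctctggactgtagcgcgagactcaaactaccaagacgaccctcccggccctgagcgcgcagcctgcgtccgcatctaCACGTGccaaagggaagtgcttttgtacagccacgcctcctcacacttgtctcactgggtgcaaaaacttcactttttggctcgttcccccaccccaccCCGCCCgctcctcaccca

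Start sites were listed for 8 of the 9 members, all but Mat1a, and the 250 bases before each were searched on both strands. All 8 held CCAAT, the letters of the CCAAT box (on the opposite strand it reads ATTGG, as in Bhmt from position -56 to -52, counted back from -1, the base before the start). CCAAT was present in 33.8% of the 32851 listed promoters, and in 38.0% of the 9749 promoters of genes with a start peak in all 4 libraries. GGGCGG, the GC box, was present in 6 of these 8, all but Gnmt and Bhmt. Its share was 32.7% of all promoters and 60.7% of those of genes with a start peak. AGGTCA, the half-site that many nuclear receptors bind, was present in Ahcy, Aldh1l1, Bhmt and Gnmt, against 14.0% and 10.5%. Bhmt held it 3 times, from -234, -72 and -47, with its CCAAT between the last pair. CACGTG (the E-box) was in Cbs alone, against 6.02% of all promoters and 8.59% of those of genes with a start peak. None of the 8 held TATAAA (the TATA box, 12.4% and 6.1% in the same order) or CCGGAAG (an ETS-type motif, 6.91% and 14.7%). GTTAAT (an HNF1-type half-site, 6.43% and 3.76%) and TTCNNNGAA (a STAT-type motif, 7.02% and 5.77%) were absent too. Likewise none held TGTTTAC (forkhead, 3.17% and 2.13%), GCGCATGC (NRF1-type, 2.26% and 4.73%), TGACGTCA (the cAMP response element, 1.55% and 2.93%) or TGATGCAA (ATF4-type, 0.791% and 0.451%). The same was true of CAAAGTCCA (HNF4-type, 0.384% and 0.318%), TTGCGCAA (CEBP-type, 0.164% and 0.297%) and TTGCGAAA (CEBP-type, 0.143% and 0.236%). At such shares, 8 promoters are too few to read an absence as a trait of the members. The GGGCGG copies nearest the Shmt1 start share letters with each other. Such matches describe the letters of these windows and not binding.

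The G and C content of these 250 bases ran from 48.0% in Bhmt to 68.8% in Mtrr, against a median of 52.4% (quartiles 45.2% and 61.2%) over all listed promoters. Bhmt held 5 CpG dinucleotides, Gnmt 6, Aldh1l1 7 and Ahcy 9. Shmt1 held 13, Mtr 20 and Cbs 21, and the promoters of the pair of listed Mtrr starts 30 and 28. The median over all promoters was 6.0. Bhmt, Gnmt and Aldh1l1 had the CpG-poorest starts of the 8, close to that median, and Mtr, Mtrr and Cbs the richest.

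All 9 members had a peak within 1 kb of a start in all 4 libraries, and each of these peaks covered the start itself. For Mat1a, with no listed start, the peak lay over the lower-numbered end of the gene (chromosome 14, 41104753 to 41105229). Over all protein-coding genes, 42.8% had such a peak in every library (9265 of 21627), and 44.2% of the 17273 with a listed start. By this measure no member's start differed between the genotypes.

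The peaks are not listed by genome position. Over the 17581 regions listed in every library the place of a region, as a percentage of the lines counted from the top, was alike between libraries (Spearman's rho 0.858 to 0.927 across regions, which share the caller and the genome). The sources used here do not say what the order stands for, so place is a description of rank and not of openness. The median place of the start peaks was 13.8% over the 9 members, against 22.6% over all genes with a start peak in all 4 libraries. The start peaks of 2 members, Mtrr and Bhmt, stood nearer the top in both PA libraries than in both WT libraries. Of the genes with a start peak in every library, 29.9% did so, and 6.92% the reverse, which 0 members did. The members' 2 of 9 is a smaller share than the background.

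Bhmt, the betaine-dependent route from homocysteine to methionine (chromosome 13, 93616891 to 93637758, minus strand), showed the widest gap between genotypes in place. Its start peak (93637459 to 93637931) was placed at 35.1% (WT 1) and 35.7% (WT 2), and at 22.2% (PA 1) and 10.3% (PA 2). The means were 35.4% ± 0.387 in WT and 16.2% ± 8.41 in PA (SD, n = 2 each), and the groups did not overlap. The gap of PA 1 to PA 2 is about as wide as that of PA 1 to the WT libraries, and with 2 libraries a group no permutation of them can give a p below 0.333.

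Mtrr, the reductase that reactivates methionine synthase (chromosome 13, 68560780 to 68582169, minus strand), had the highest-placed and most fixed start peak. It stood 2.33% and 2.10% down the WT lists and 1.92% and 1.51% down the PA lists. The means were 2.21% ± 0.167 and 1.71% ± 0.291 (SD, n = 2 each), both close to the top. The peak was listed at the same position in all 4 libraries (68581942 to 68582341). It covered both listed starts of Mtrr (68582104 and 68582169) and that of Fastkd3 (68582210, opposite strand), a gene of mitochondrial RNA handling, so this peak cannot be assigned to either gene.

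Mtr, methionine synthase (chromosome 13, 12181331 to 12258199, minus strand), also stood high, at 5.21% and 8.38% in WT and 3.68% and 6.45% in PA, with overlapping groups. Shmt1 (chromosome 11, 60788897 to 60811265, minus strand) stood at 15.0% and 10.6% in WT and 14.6% and 6.59% in PA. Cbs (chromosome 17, 31612623 to 31637233, minus strand) stood at 20.8% and 22.7% in WT and 21.1% and 16.7% in PA, again with overlap. Counted by line number in place of percentage, Cbs too was nearer the top in both PA lists, which makes 3 members.

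In Mat1a, Gnmt, Ahcy and Aldh1l1, PA 1 stood farthest down of the 4 libraries. For Aldh1l1 (chromosome 6, 90550768 to 90599171, plus strand) the places were 5.45% and 5.20% in WT, 14.5% in PA 1 and 3.61% in PA 2. Gnmt (chromosome 17, 46725664 to 46729211, minus strand) stood at 16.2% and 10.2% in WT, 26.5% in PA 1 and 11.5% in PA 2. At Aldh1l1 the PA libraries lay on either side of both WT libraries, and at Gnmt the groups overlapped. Ahcy (chromosome 2, 155059310 to 155074497, minus strand) stood at 22.9% and 13.0% in WT, 28.0% in PA 1 and 15.7% in PA 2, and Mat1a (chromosome 14, 41105012 to 41124428) at 13.7%, 14.2%, 17.0% and 5.03% in the same order.

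PA 1 was farthest down at 4 of 9 members, against 17.4% of all genes with a start peak in every library. PA 2 was nearest the top at 6 of 9, against 24.2%. Over all such genes PA 1 was the library most often nearest the top (42.9%, and 1 of 9 members). WT 1 was the one most often farthest down (48.2%, and 2 of 9 members). At 7 of 9 members, all but Mtrr and Bhmt, PA 1 and PA 2 differed from each other by more than the genotype means did, as at 55.4% of all genes with a start peak in every library. PA 1 is the shortest list and PA 2 the longest, and the part of list length in these places was not tested.

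**Figure D1:**
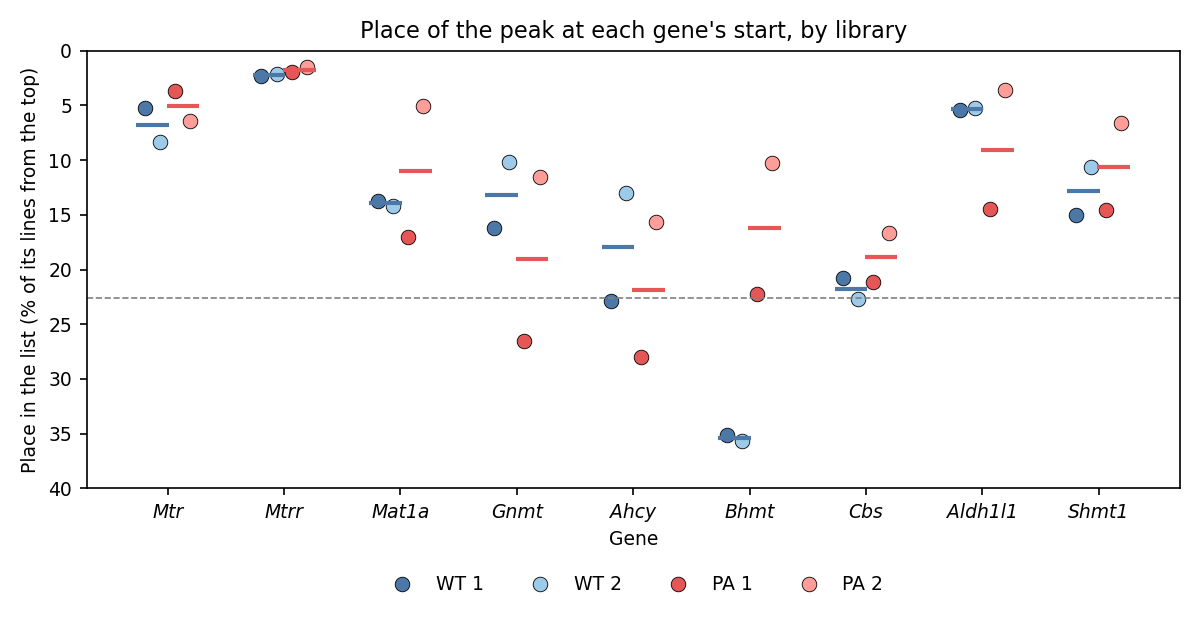
Place of the peak at each member's start in each list, in percent of the list's lines from the top (axis reversed, top of the list at the top). Points are libraries, short bars the mean of the 2 libraries of a genotype, and the dashed line the median of 22.6% over all genes with a start peak in every library. Mtrr stays between 1.51% and 2.33%, and Bhmt is the gene whose WT points (35.1% and 35.7%) lie farthest below its PA points.

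Peak centres give a second measure for each library, since nearly all peaks were 400 bp long. The centre of the start peak moved between libraries by a median of 30 bp over the members (0 to 79 bp), against 41 bp over all genes with a start peak in every library. In Mtrr it was 27.5 bp downstream of the nearer listed start in each library, a spread of 0 bp. In Cbs it was at -25.5 bp in WT 1 and -22.5 bp in the other 3 libraries, where negative means upstream. These peaks sat at one place in both genotypes.

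Larger shifts came at Gnmt, Ahcy, Mat1a and Bhmt. For Gnmt the centre was at -49.5 bp in both WT libraries, -28.5 bp in PA 1 and -107.5 bp in PA 2. For Ahcy it was at -77.5 and -78.5 bp in WT, -2.5 bp in PA 1 and -67.5 bp in PA 2. In both cases the WT libraries coincide and the PA libraries differ, in opposite directions at Gnmt. Bhmt was the only member besides Mtrr with all centres downstream, at 99.5 and 41.5 bp in WT and 26.5 and 80.5 bp in PA, with no order by genotype. Mtr was centred farthest upstream, at -101.5 bp in both WT libraries, -131.5 bp in PA 1 and -107.5 bp in PA 2. Aldh1l1 (-68.5 to -48.5 bp) and Shmt1 (-35.5 to -18.5 bp) overlapped between genotypes. For Mat1a the centres, from its lower-numbered end, were at -41.5 and -59.5 bp in WT and -25.5 and 17.5 bp in PA. At 3 of 9 members, Mtr, Ahcy and Mat1a, the genotypes did not overlap, with 6, 10 and 16 bp between their nearest libraries. Over all genes with a start peak in every library, 25.9% did not overlap in either direction.

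**Figure D2:**
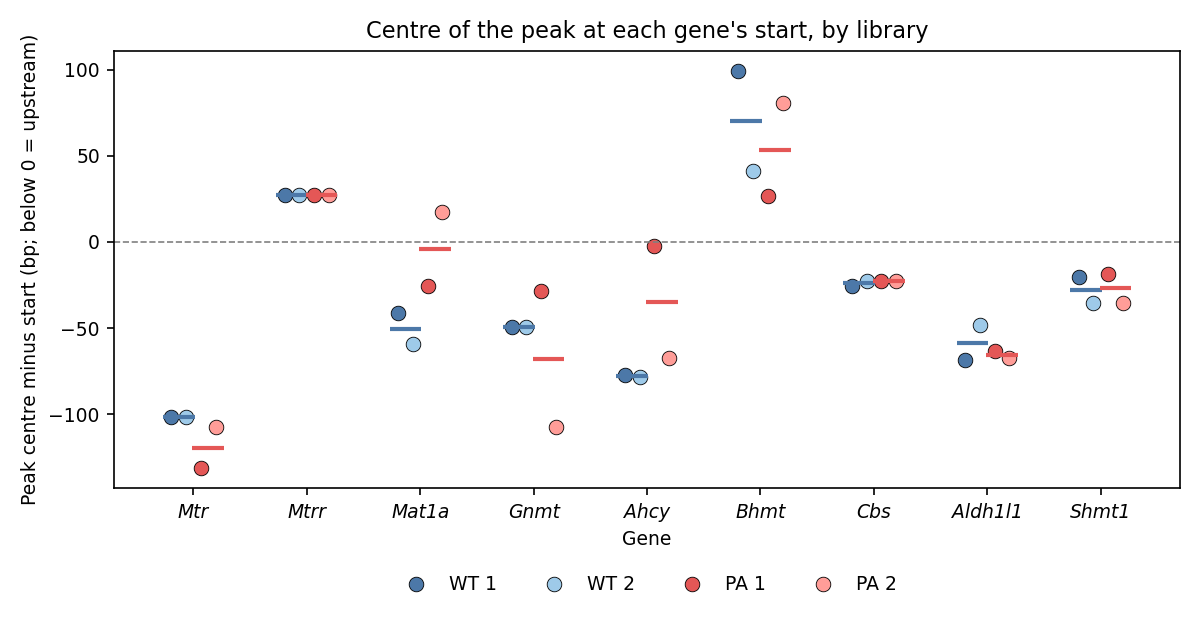
Centre of the start peak minus the nearest listed start, in bp, for each library (Mat1a relative to its lower-numbered end). Points are libraries, short bars means of a genotype, and the dashed line marks the start. Mtrr and Cbs vary by 0 and 3 bp, and Gnmt, Ahcy, Mat1a and Bhmt by 73 to 79 bp.

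Away from the starts the windows were less evenly called. Over all 54 regions, 32 (59.3%) were listed in all 4 libraries, against 45.3% of all regions. The 54 include the 9 start regions, each listed in every library, and outside members the share was 53.7%. Of the 41 regions outside members, 22 were listed in all 4, and of the 4 inside members away from a start, 1 was, at Shmt1 (60795645 to 60796059, 15206 bp downstream of the start). The number of peaks in the windows was 45 (WT 1) and 43 (WT 2), and 40 (PA 1) and 48 (PA 2). The means were 44.0 ± 1.41 in WT and 44.0 ± 5.66 in PA (SD, n = 2 each), and the exact permutation test of the libraries gave p = 1 (two-sided, smallest possible 0.333). As a share of its list this was 0.171% (WT 1) and 0.166% (WT 2), and 0.156% (PA 1) and 0.161% (PA 2). The 2 libraries with the most peaks in the windows, PA 2 and WT 1, also had the longest lists. Leaving out PA 1 turned the difference of PA minus WT into 4.0, and leaving out PA 2 into -4.0. With both means at 44.0, the PA counts of 40 and 48 fix these values.

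**Figure D3:**
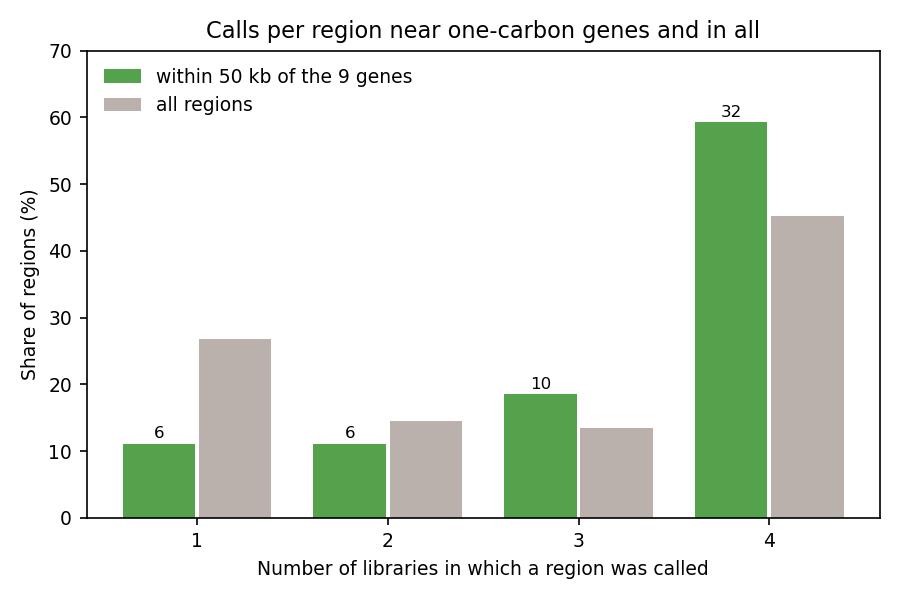
Share of regions in percent by the number of libraries in which they were called, within 50 kb of the 9 genes (green, with the number of regions above each bar) and over all regions (grey). Near the genes 59.3% of regions were called in all 4 libraries and 11.1% in 1, against 45.3% and 26.8% over all regions. The green bar for 4 libraries includes the 9 regions at the members' starts.

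A region that PA 1 and PA 2 list and neither WT library lists is called PA-only here, and the reverse WT-only. The windows held 2 PA-only and 2 WT-only regions of 54, where 3.38% of all regions were PA-only and 1.98% WT-only. They lay at 2 members, Aldh1l1 and Gnmt, each with 1 of either kind. Over all protein-coding genes, 9.73% had a PA-only region in such a window, 6.58% a WT-only region and 1.01% both. The member windows held more regions than most, a median of 7 against 4 over all genes. Of the 9 members, 2 had both, so the share of members was above that of genes, while the share of regions (3.7% of either kind) was near the background for PA-only regions. These counts are small, and each depends on single libraries. Without WT 2 there were 4 PA-only regions, without PA 1 there were 5, and without PA 2 there were 4, while WT-only regions numbered 8 without PA 2, since 6 regions that PA 1 alone lacked then count. Dropping any library removes a requirement, so such counts cannot fall.

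At Aldh1l1 the PA-only region lay inside the gene, 27451 bp downstream of its start (chromosome 6, 90578244 to 90578647). Its place was 30.8% in PA 1 and 22.3% in PA 2, with peaks 4 bp apart. The nearest WT peak was 26016 bp away. Exons and introns were not annotated in the gene table used. This is the only restricted region inside a member, and it stood nearer the top of its lists than the other 3 did. The start of Aldh1l1 and a region 5942 bp upstream of it (90544429 to 90544851, placed at 10.4%, 8.10%, 12.2% and 4.36% in WT 1, WT 2, PA 1 and PA 2) were listed in every library. A region 35456 bp upstream (90514879 to 90515337), on the side of Klf15, a transcription factor of amino acid breakdown in liver, was also listed in all 4, between 9.64% and 21.3%.

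The WT-only region of the Aldh1l1 window (90618960 to 90619359) covered a listed start of Slc41a3 (90619246), a member of a magnesium transporter family, 68167 bp downstream of the Aldh1l1 start. The WT 1 and WT 2 peaks had identical positions, at 62.2% and 45.0% of their lists, and the nearest PA peak was 13808 bp away. Slc41a3 is on the plus strand, and this listed start lies inside the gene, with the WT-only region 14230 bp from its lower-numbered end. That end, where a plus-strand gene begins, had a region in every library (90604663 to 90605152, between 6.94% and 17.5%).

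Both restricted regions near Gnmt also covered starts of other genes, which are those printed above. The WT-only one (chromosome 17, 46711193 to 46711812) lay over the start of Pex6 (46711476), an ATPase of peroxisome assembly, placed at 71.3% (WT 1) and 53.6% (WT 2). The nearest PA peak was 5897 bp away. It was longer than usual (620 bp) because the WT peaks were offset, from 46711413 in WT 1 and from 46711193 in WT 2. WT 1 covered 63 of the 250 bases before the Pex6 start and WT 2 all 250. The PA-only one (46772450 to 46772974) lay over the start of 2310039H08Rik (46772635), placed at 42.3% (PA 1) and 41.5% (PA 2). The nearest WT peak was 9508 bp away. PA 1 covered 185 and PA 2 60 of the 250 bases before that start. Before its start, Pex6 holds CCGGAAG from -58 and -8, and 2310039H08Rik holds CACGTG from -117 (capitals in the sequences above). Each region overlaps its own gene, and the Gnmt start lay 17353 and 43285 bp from them. Of the 4 restricted regions, 3 thus covered a start of a neighbour that is not a one-carbon gene.

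Regions with a listing in 3 libraries were mostly those that PA 1 lacked, and this was seen at Mat1a, Shmt1, Ahcy and Cbs. PA 1 alone lacked 6 of the 54 regions (11.1%, against 5.78% of all regions), WT 1 lacked 2 (3.5% of all regions), WT 2 lacked 1 (2.82%) and PA 2 lacked 1 (1.32%). The PA 1 list is the shortest, with 25683 peaks, against 25941 to 29765 in the others, and the part of list length was not tested. Inside Mat1a, a region 7899 bp from the gene's lower-numbered end (41112911 to 41113340) was not listed in PA 1. It stood at 31.3%, 26.2% and 27.1% in WT 1, WT 2 and PA 2. The other 5 stood lower, between 55.3% and 99.1% of their lists. Among them was a region 5098 bp upstream of Shmt1 (60816363 to 60816833, at 62.5%, 55.3% and 69.5%) and one 16862 bp upstream of Ahcy (155091359 to 155091814, at 94.6%, 79.4% and 74.0%).

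Upstream regions called in every library were found close to Ahcy and Bhmt as well. Ahcy, the hydrolase that clears S-adenosylhomocysteine, had one 6594 bp upstream (155081091 to 155081496) that stood at 15.3% and 10.2% in WT and 14.5% and 8.27% in PA. In each library it stood nearer the top than the peak at the Ahcy start. Bhmt had a region 10847 bp upstream (93648605 to 93649146, at 26.8% and 34.8% in WT and 25.9% and 19.5% in PA). Farther on, the region at 93674089 to 93674534 covered the starts of Bhmt2 (93674302) and Dmgdh (93674436), which are transcribed away from each other. Bhmt2 is a close relative of Bhmt, and Dmgdh oxidises the dimethylglycine that Bhmt makes. It stood at 37.8% and 24.1% in WT and 42.6% and 17.2% in PA, and another region 1481 bp from that end of Bhmt2, inside the gene (93672366 to 93672821), was listed in all 4 libraries too. Within 50 kb of Bhmt there was no restricted region, and the one region not listed in every library was a PA 1 peak at 93614585 to 93614984.

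The windows of the remethylation pair Mtr and Mtrr held 4 and 3 regions, starts included, against a median of 7 over the members and 4 over all genes. Regions besides the starts stood lower than the start peak in each library that listed them. Past the end of Mtr, regions 20846 and 34473 bp away (chromosome 13, 12160065 to 12160485 and 12146395 to 12146858) were listed in every library, and in both WT 1 stood nearest the top (32.1% and 16.7%) and WT 2 farthest down (72.4% and 56.8%). The PA libraries, at 34.6% to 52.0%, lay between them. A region inside Mtr, 25568 bp from its start (12232121 to 12232545), was listed in WT 1 (65.5%) and PA 2 (61.9%), one library of each genotype. Upstream of Mtrr, the regions at 68605582 to 68606010 and 68627001 to 68627432 were listed in every library, and WT 2 again stood farthest down (73.6% and 53.5%). At the 4 regions called in every library, WT 1 and WT 2 differed by more than PA 1 and PA 2 did, except at 68627001.

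Around Gnmt, the regions at the starts of its neighbours Klhdc3 with Mea1, Ppp2r5d and Cnpy3 kept nearly the same place in all libraries. That of Klhdc3 and Mea1 (46680795 to 46681220) lay between 9.91% and 12.3%, that of Cnpy3 (46752079 to 46752503) between 10.3% and 12.6%, and that of Ppp2r5d (46704887 to 46705296) between 18.7% and 25%. The Gnmt start, between 10.2% and 26.5%, and a region 6079 bp upstream of it at the other end of Cnpy3 (46735244 to 46735761, between 6.43% and 16.6%) ranged more widely. PA 1 stood farthest down at these 2 regions and at those of Klhdc3 with Mea1 and of Ppp2r5d.

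The rule's edge of 50 kb kept or left out few regions. Nearest inside it, 47911 bp from Cbs, was a region 10 bp from an end of Pknox1 (31564306 to 31564712), listed in all 4 libraries. Just outside were a region 50748 bp from Shmt1 (60862013 to 60862412), listed in PA 1, and regions 51119 bp from Gnmt and 51786 bp from Bhmt.

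Other genes of one-carbon metabolism were looked at as 7 groups with 72 genes, all matched by symbol. A peak within 1 kb of a start was listed in all 4 libraries for 54 of them (75%, against the 42.8% of all genes). Cobalamin handling (8 of 9, with Mmachc, which processes cobalamin, and Mmut, methylmalonyl-CoA mutase) and methionine salvage and polyamines (8 of 9, with Mtap and Odc1) were the most evenly called. The methionine cycle group reached 7 of 9, with Mat2a, the S-adenosylmethionine synthetase of other tissues, and Pemt, which methylates phosphatidylethanolamine. The folate cycle group reached 15 of 20, with Mthfd1, which interconverts folate one-carbon forms. Choline and betaine reached 5 of 7, with Dmgdh and Sardh, and glycine cleavage and serine 5 of 8, with Gldc and Gcsh, of the glycine cleavage system. Transsulfuration and cysteine had the lowest share, 6 of 10, with Cth, the enzyme after Cbs, and Cdo1. In no library was there such a peak for Nnmt, Slc6a12, Folr2, Phgdh, Sds, Csad or Mmadhc.

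**Figure D4:**
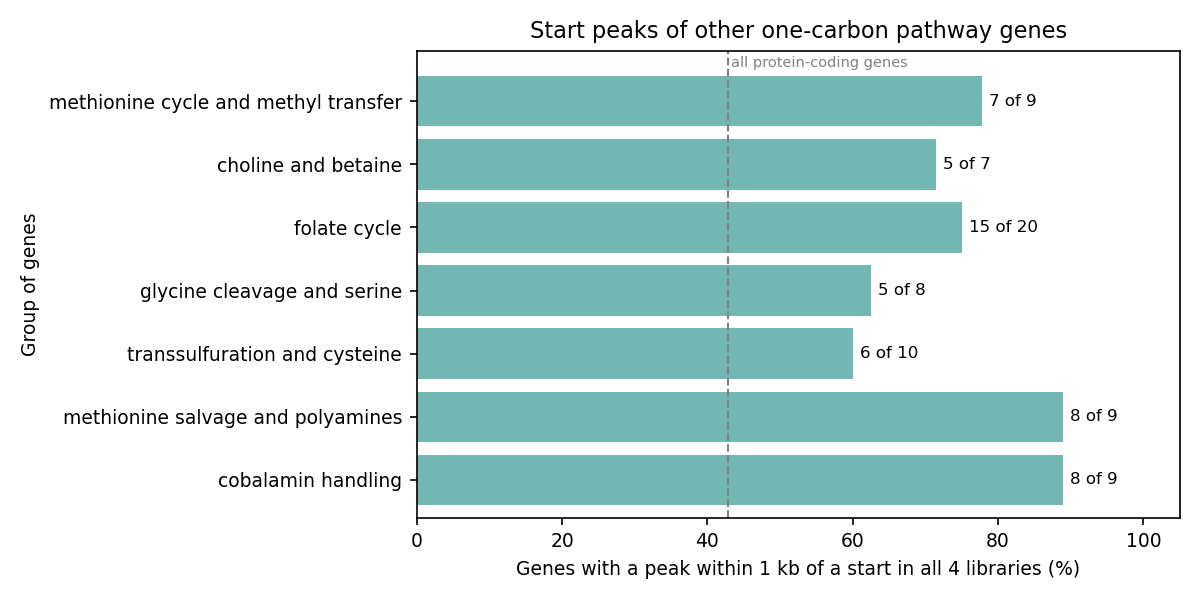
Share of genes, in percent, with a peak within 1 kb of a start in all 4 libraries, for 7 groups of other one-carbon genes, with the count beside each bar. The dashed line is the 42.8% of all protein-coding genes, and every group lies above it, from 60.0% to 88.9%.

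Of the 72 genes, 8 had a PA-only region within 50 kb and 7 a WT-only region (11.1% and 9.72%, against 9.73% and 6.58% of all genes), and Mpst and Tst share one. The nearest to a start was that of Mthfs, which returns 5-formyltetrahydrofolate to the cycle. Its PA-only region lay 356 bp from a listed start (chromosome 9, 89210424 to 89210834), at 71.4% and 78.9% of the PA lists and 7364 bp from the nearest WT peak. Mthfs was the one gene of the 72 with a start peak in PA 1 and PA 2 and none in WT, a pattern that 0.657% of all genes had. The reverse pattern (0.472% of all genes) was met by Shmt2, the mitochondrial counterpart of Shmt1. Shmt2 was named after its values were seen. There the WT peaks lay 996 and 999 bp from the start and a PA 2 peak 1006 bp, so the limit of 1 kb decided the call, and the region was listed in 3 libraries.

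The other PA-only regions lay farther than that of Mthfs from a start (or gene end) of the gene concerned. That of Cdo1, cysteine dioxygenase, was 1710 bp from its nearer end (chromosome 18, 46710750 to 46711483, at 65.3% and 58.2%), and that of Slc19a1, the reduced folate carrier, 9581 bp away (chromosome 10, 77022467 to 77023158, at 37.4% and 45.0%). Those inside Mthfd2l and Enoph1 were 18270 and 15935 bp from a start and stood between 94.1% and 98.6%. PA-only regions near Tyms, Tcn2 and Cd320 were 21623 to 38979 bp away and closer to other genes. WT-only regions were in the windows of Ggh, Slc46a1, Dld, Sds, Mpst, Tst and Lmbrd1, at 19446 bp or more from a start. The highest of them in the lists (43.9% and 39.5%) was the one shared by Mpst and Tst, nearer to Kctd17.

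As a check of the tissue, start peaks of the hepatocyte markers Ttr, Apob, Hnf4a, Cps1 and Cyp2e1 were listed in all 4 libraries (5 of 10, against the 42.8% of all genes). Tat, Serpina1a and Fgb had one in 3 libraries, Alb in 1 and Apoa1 in 0. Of 30 markers of endothelial, Kupffer, stellate, bile duct, lymphoid and blood cells, 2 had one in all 4 (Tie1 and Reln) and 20 in none. Of the 5 Kupffer cell markers, Adgre1 had a peak at a gene end in PA 1 and PA 2 and none in WT, a pattern that 0.657% of all genes had. Cd5l had one in WT 1 and PA 2, and Clec4f, Marco and Csf1r had one in no library. PA-only regions lay within 50 kb of 2 of the 30 markers, Adgre1 and the stellate cell marker Lrat, and of 2 of the 10 hepatocyte markers, Apoa1 and Fgb. Over all protein-coding genes, 9.73% had a PA-only region in such a window. WT-only regions lay near none of the markers listed, against 6.58% of all genes. The part of cell makeup in the results above was not tested. A listing is not a measure of expression.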

How the data were processed

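The authors deposited 1 peak list per library, with chromosome, start and end, and no other value per peak. The build was GRCm38 (mm10), and bedtools 2.31.0, HOMER 4.10, R 4.1.2, SAMtools 1.17, Bowtie2 2.5.1 and cutadapt 3.5 are named, per the submitters' processing notes. Not given in the sources used here are the peak caller, its threshold, how reads were filtered and whether their ends were shifted. Read depth is unknown, and intervals based on it are left out. A deeper library can pass the threshold at more places. The design calls the replicates biological.

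Peaks of the 4 libraries that overlapped or touched were merged into regions (Python 3.11.15, pandas 2.3.3), a step tested on simulated data. Genes, their spans and 8 of 9 member starts came from RefSeq tables of GRCm38.p6, over 21627 protein-coding genes of chromosomes 1 to 19 and X. The 4354 without a listed start were measured at both gene ends. Members and gene lists were chosen with earlier results of these data known, and use of place in the list was added after the data were seen. Named genes were all members, every restricted region in their windows, and from the other lists the genes with a restricted region, up to 2 per group called in all libraries and those called in none. Counts of members are descriptions beside the same count over all features. The single test was an exact permutation of libraries (scipy 1.17.1). Alternatives were other windows, merging rules, distances, list lengths and left-out libraries.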

Additional observations from a re-analysis of the deposited data

How the results depend on the processing

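All 9 members kept a start peak in every library at 0 bp and 2 kb, with lists of equal length, in the upper 50% of the lists and without any one library. Merging peaks up to 200 bp apart, asking for 100 bp of overlap, or equal lists changed no count of PA-only, WT-only or all-4-library regions. Narrower windows hold fewer regions by construction. PA-only regions numbered 1 with a window of 25 kb, 1 with 5 kb and 1 in the gene body, WT-only regions 0 with 5 kb and 0 in the gene body, and regions in all 4 libraries 10 with 5 kb and 10 in the gene body. In the upper 50% of the lists there were 0 WT-only and 3 PA-only regions. Both WT-only regions fell to the cut, since their WT 1 peaks stood at 71.3% and 62.2%. The added PA-only region was one upstream of Mtrr (68605582 to 68606010), which all 4 full lists hold. Its places were 52.0% and 73.6% in WT and 43.4% and 49.8% in PA, so the cut took its WT peaks alone. Leaving out a library gave 3 to 5 PA-only and 2 to 8 WT-only regions. The difference in peaks, 0.0 with all libraries, ran from -4.0 to 4.0 without one library and from -2.5 to 1.5 under the other settings. With the replicate block it was 0.0 (exact sign-flip test over 2 pairs, two-sided, p = 1). Nothing in the labels ties equal numbers together, and deviations of same-numbered libraries correlated at -0.00688 over 38853 regions. Place in the list, by line number in place of percent, put 3 members nearer the top in PA in place of 2. Listing by threshold hides any change in openness above it.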

Other observations

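Regions over a listed start of another gene were mostly listed in every library. Starts that no region covered, such as those of Sftpa1 and 1700001L19Rik, do not enter this count. The same share over all start-covering regions of the series was not computed. Of the 41 regions outside members, 10 covered a listed start of another protein-coding gene, and 7 of these were listed in all 4 libraries, against 15 of the 31 that covered none. The 7 covered the starts of Mbl1 (mannose-binding lectin, beside Mat1a), Klhdc3 with Mea1, Ppp2r5d and Cnpy3 (beside Gnmt), Bhmt2 with Dmgdh, U2af1 (a splicing factor, beside Cbs) and Dhrs7b (beside Shmt1). Of the other 3, each was restricted to a genotype and has been described. The region beside Pknox1, a homeobox transcription factor gene, stood highest of all regions outside the members, at 3.28% and 3.45% in WT and 2.23% and 3.01% in PA.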
